A study of Homo sapiens with 6 samples.

Results

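The probe sets of long noncoding RNA (lncRNA) genes were examined in a human myeloma cell line, NCI-H929, after knockdown of either subunit of ribonucleotide reductase. A probe set is a group of short array probes read out as 1 signal. Members were all probe sets whose platform annotation held a gene symbol starting with LINC, SNHG or DLEU, a symbol ending in -AS1, -AS2, -AS3, -DT, -IT1 or -OT1, or 1 of 8 named genes such as NEAT1, MEG3 and PVT1. This gave 160 of the 22277 probe sets, for 127 lncRNA genes among the 13119 gene symbols of the annotation. Of the 160, 134 carried 1 gene symbol and 26 carried several, so that for the latter the signal could not be assigned to the lncRNA alone. No probe set was found under the symbols MALAT1, H19, GAS5 or MIR17HG, which were not analysed here. Of the lncRNA genes, 125 were matched to RefSeq by gene identifier, and 124 had the biotype lncRNA there.

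All 6 arrays came from NCI-H929 cells that had received small interfering RNA (siRNA) by electroporation, with RNA taken 24 h later. The control group (scramble, 2 arrays) received a non-targeting siRNA, the siRRM1 group (2 arrays) an siRNA against RRM1, and the siRRM2 group (2 arrays) an siRNA against RRM2. RRM1 is the large and RRM2 the small subunit of this enzyme, which turns ribonucleotides into the deoxyribonucleotides that DNA is built from. A single cell line was used, and nothing in the labels tells separate cultures from repeat arrays of 1 culture, so p-values measure only the spread between these samples, which may be technical. All values are log2 signals of biotin-labelled RNA, and a difference of 1 is a 2-fold change.

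LncRNAs are transcripts without a long reading frame, and many of them lie beside, antisense to or inside protein-coding genes. Some are hosts: SNHG genes carry small nucleolar RNAs (snoRNAs), the guides of ribosomal RNA modification, in their introns, and DLEU2 carries the microRNAs miR-15a and miR-16-1, which repress cell-cycle and survival genes such as BCL2. DLEU2 and its neighbour DLEU1 lie in 13q14, a band that is often deleted in chronic lymphocytic leukaemia and multiple myeloma. Other members are known for their place in the nucleus, such as NEAT1, the RNA scaffold of paraspeckles, or for imprinting, such as MEG3.

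The products that make DLEU2 known as a host are shown because its probe sets fell in these data. Both mature microRNAs, taken from RefSeq (GRCh38.p14), lie on the minus strand of chromosome 13, and their shared seed (bases 2 to 8) is in capitals. Mature microRNAs were not measured on these arrays.
hsa-miR-15a-5p: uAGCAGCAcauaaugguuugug
hsa-miR-16-5p: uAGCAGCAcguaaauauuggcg
The first lies at chr13:50049167-50049188 and the second, from MIR16-1, at chr13:50049027-50049048. This seed was held by 8 hairpin genes with 7 mature names in the RefSeq table, among them miR-15b-5p, miR-195-5p, miR-424-5p and miR-497-5p. The same 22-base miR-16-5p is also listed for MIR16-2.

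DLEU1 and DLEU2 are read in opposite directions, and RefSeq lists 2 starts for DLEU2. One of them lies 128 bases from the DLEU1 start, so that the windows from 250 bases before to 50 after each start share 227 bases. The DLEU1 window (GRCh38.p14, chr13:50081919-50082218, plus strand) is printed because both genes' probe sets fell in siRRM1. Capitals mark the stretch from the DLEU2 start to the DLEU1 start.
DLEU1 window: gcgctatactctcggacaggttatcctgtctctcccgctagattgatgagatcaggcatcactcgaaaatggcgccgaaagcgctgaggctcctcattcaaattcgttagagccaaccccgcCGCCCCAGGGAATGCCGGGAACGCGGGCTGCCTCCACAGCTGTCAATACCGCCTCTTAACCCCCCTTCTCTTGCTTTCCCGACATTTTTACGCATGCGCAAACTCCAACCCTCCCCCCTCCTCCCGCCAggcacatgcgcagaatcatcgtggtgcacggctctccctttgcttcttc
This window held 21 CpG sites, against a median of 14 over all 35116 windows of the RefSeq table. On either strand it held 1 GC box (GGGCGG, in 45.0% of all windows), and no match to an E-box (CACGTG, 7.26%), a CCAAT box (CCAAT, 34.6%), an E2F motif (TTTGGCGC, TTTCCCGC, TTTCGCGC or TTTGCCGC, 3.31%) or the p53 decamer (6.63%). The other DLEU2 window (chr13:50125492-50125791, minus strand) held 3 GC boxes and 1 E-box. None of the spelled motifs contains another. A match is a description of letters and not a binding site.

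The knockdowns were seen in the targeted genes. RRM1 signal in the siRRM1 arrays was 24.3% and 11.1% of the scramble mean on probe set 201476_s_at, and 22.4% and 11.7% on 201477_s_at. RRM2 signal in the siRRM2 arrays was 21.2% and 39.6% of the scramble mean on 201890_at, and 12.8% and 18.5% on 209773_s_at. Of 11 plasma cell and myeloma markers, 10 lay above the signal filter. In siRRM1 9 of these 10 lay below both scramble arrays and 1 above, beside 31.4% and 26.0% of all probe sets tested. FGFR3 was the 1 called lower, beside 5.74% of all. In siRRM2 2 of the 10 lay below both scramble arrays and 3 above, beside 28.9% and 25.8%, and 0 were called, beside 1.32%. The mean log2 signal of the 11 was 10.2 to 10.3 in scramble, 9.98 to 10.1 in siRRM1 and 10.3 in siRRM2. The part of this shift in the lncRNA falls was not tested. Replicate arrays correlated across probe sets at 0.992 to 0.996. The median gap between 3′ and 5′ signal over 9 sets of spiked control RNAs was 1.47 in siRRM1 replicate 2 and 1.23 to 1.38 in the other arrays. For ACTB of the cells' own RNA the gap was 0.34 in scramble replicate 1 and 0.33 in siRRM1 replicate 2, and 0.03 to 0.15 in the other arrays.

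Most lncRNA probe sets were dim. Probe sets were tested when their mean over the 6 arrays reached the 40th percentile, a log2 signal of 5.43. By that rule 55 of the 160 members were tested (34.4%), against 60% of all probe sets, and the 105 others had means of 2.81 to 5.39. Among the tested members, 3 had a scramble mean under this threshold and passed through the knockdown arrays. The tested members named 47 lncRNA genes and included 19 that name several genes.

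In siRRM1 against scramble, 5 of the 55 tested members were called at a Benjamini-Hochberg adjusted p under 0.05, 1 higher and 4 lower. That is 9.09%, beside 12.1% of all 13329 probe sets tested (6.41% higher and 5.74% lower). In siRRM1 and in this fit the lncRNA probe sets were thus not called more often than the array as a whole. In siRRM2 against scramble, 1 member (1.82%) was called, lower, beside 1.32% of all probe sets (1.12% higher and 0.203% lower). Between siRRM1 and siRRM2, 0 members were called by limma, beside 0.0375% of all probe sets, and 4 members had an unadjusted p under 0.05. The comparisons with scramble share the same 2 control arrays, so their values are given side by side and are not independent. With the replicate number as a block, 15 members were called in siRRM1 (2748 of all 13329 probe sets), 5 in siRRM2 (712 of all) and 1 between the knockdowns (101 of all). In that fit the share called was larger among the 55 members than among all probe sets tested in each comparison.

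The median difference of the tested members was 0.01 in siRRM1 and -0.07 in siRRM2, beside -0.02 and -0.01 over all probe sets tested. In siRRM1 14 members lay above scramble on both arrays, 18 below, and 23 overlapped, while 26.0% of all probe sets tested lay above and 31.4% below. In siRRM2 these counts were 10, 18 and 27, beside 25.8% and 28.9%. In siRRM1 49 of the 55 members lay within 0.5 of scramble (89.4% of all probe sets tested did), and in siRRM2 48 (95.5% of all). The median absolute difference of the members was 0.211 in siRRM1 and 0.149 in siRRM2, beside 0.170 and 0.131 over all probe sets tested. The called members were thus few, and most lncRNA probe sets stayed within 0.5 of scramble. In siRRM2 a smaller share of the members did so than of all probe sets tested.

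**Figure D1:**
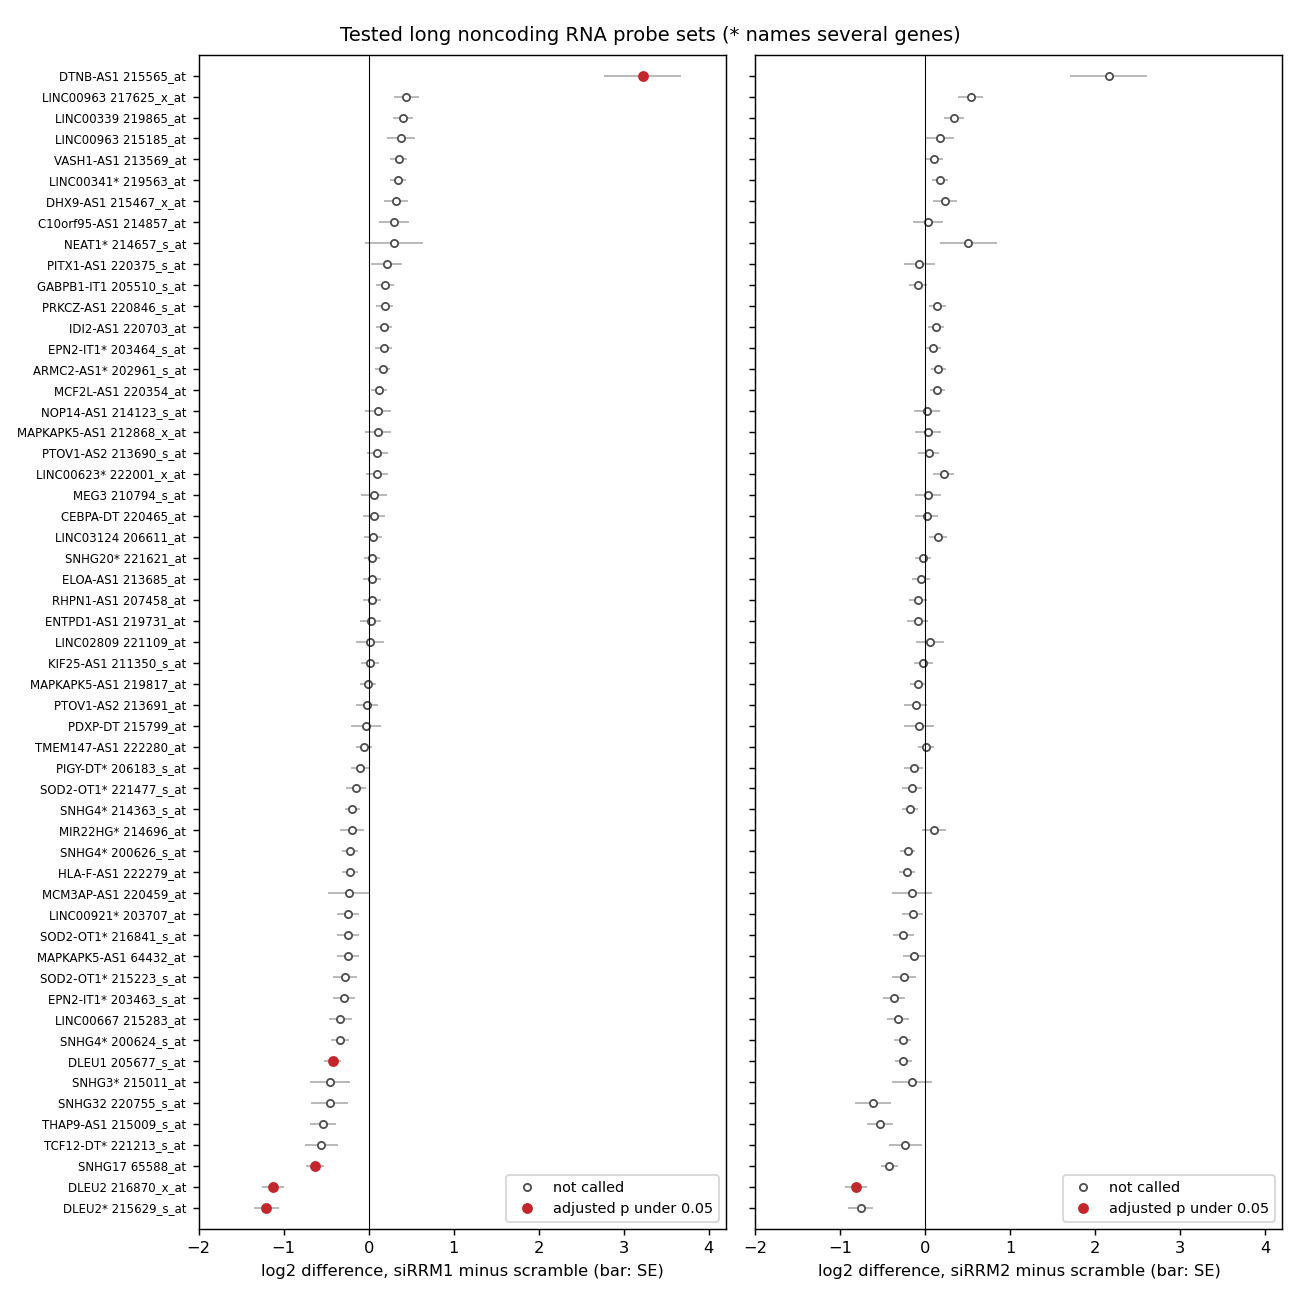
Log2 difference from scramble (x axis, bars are the standard error of the moderated fit) for the 55 tested lncRNA probe sets, siRRM1 on the left and siRRM2 on the right, in the order of the siRRM1 value. Filled points have an adjusted p under 0.05: 5 in siRRM1, from DTNB-AS1 at 3.22 to a DLEU2 probe set at -1.21, and 1 in siRRM2, DLEU2 at -0.82.

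DLEU2 signal was lower in both knockdowns on both of its tested probe sets, with both called in siRRM1 and 1 in siRRM2. On 216870_x_at, which names DLEU2 alone, the signals were 7.45 and 7.27 in scramble, 6.18 and 6.29 in siRRM1, and 6.39 and 6.70 in siRRM2. Every knockdown array lay below both control arrays, and the siRRM1 arrays lay below the siRRM2 arrays. The difference in siRRM1 was -1.12 (SE 0.13, 95% confidence interval -1.43 to -0.82, 2.18-fold lower, adjusted p = 0.00468). In siRRM2 it was -0.82 (SE 0.13, -1.13 to -0.51, 1.76-fold lower, adjusted p = 0.0428). Between the knockdowns the difference was -0.31 (-0.62 to 0.00035, adjusted p = 0.578).

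The other tested DLEU2 probe set, 215629_s_at, also names MIR15A, which lies inside DLEU2, and DLEU2L, a DLEU2-like copy elsewhere in the genome. Its signals were 7.46 and 7.14 in scramble, 6.25 and 5.93 in siRRM1, and 6.51 and 6.57 in siRRM2. The order of the groups was that of the first probe set, again without overlap. The siRRM1 difference was -1.21 (SE 0.15, adjusted p = 0.00515), and the siRRM2 difference was -0.76 (SE 0.15, adjusted p = 0.0603), which misses the threshold but passes it with the replicate block (adjusted p = 0.0135). The -0.45 between the knockdowns (95% interval, not adjusted, -0.79 to -0.10) had an adjusted p of 0.464. Suffixes _s_at and _x_at mark probes that may match more than 1 transcript, so these probe sets do not tell DLEU2 from DLEU2L with certainty.

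The third DLEU2 probe set, 216856_s_at, was under the signal filter, with 4.81 and 4.65 in scramble, 4.61 and 4.35 in siRRM1, and 4.30 and 4.31 in siRRM2. Its knockdown arrays also lay below both control arrays, by -0.25 and -0.42 on average, but siRRM2 was the lowest group. The siRRM1 fall kept an adjusted p under 0.05 for both tested probe sets in every alternative that tested them (0.0012 to 0.031 and 0.00067 to 0.032). The siRRM2 call of 216870_x_at was lost when any 1 of the 6 arrays was left out: adjusted p = 0.178 and 0.105 without scramble replicate 1 or 2, 0.0562 without either siRRM1 array, and 0.216 and 0.119 without siRRM2 replicate 1 or 2.

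DLEU1, whose start faces one of the DLEU2 starts, also fell in siRRM1. Its probe set 205677_s_at had signals of 8.75 and 8.64 in scramble, 8.36 and 8.19 in siRRM1, and 8.41 and 8.46 in siRRM2. All knockdown arrays lay below the control arrays. The siRRM1 difference was -0.42 (SE 0.10, 1.34-fold lower, adjusted p = 0.0387) and the siRRM2 difference -0.26 (SE 0.10, adjusted p = 0.228). The siRRM1 call did not hold without scramble replicate 1 (adjusted p = 0.183), scramble replicate 2 (0.0821), siRRM1 replicate 2 (0.154) or either siRRM2 array (0.0789), nor with no signal filter (0.0517).

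Genes of 13q14 were followed in a list of 22 genes around DLEU2, of which 11 were tested with 1 probe set each. In siRRM1 2 of the 11 were lower (DLEU1 and INTS6) and 0 higher, beside 5.74% lower and 6.41% higher among all probe sets tested. DLEU1 is a member already described, so INTS6 was the only other gene called on the list's probe sets. In siRRM2 0 were called, beside 1.32%. The siRRM1 count was 0 when any array other than siRRM1 replicate 1 was left out, and 3 with the replicate block. The list's median difference was -0.29 in siRRM1 and -0.18 in siRRM2, beside -0.02 and -0.01 for all probe sets tested. INTS6, a subunit of the Integrator complex that processes small nuclear RNAs, was at -0.47 in siRRM1 (SE 0.11, adjusted p = 0.0322) and -0.41 in siRRM2 (adjusted p = 0.106). Its other probe set, 222239_s_at, was at -0.62 and -0.40 (adjusted p = 0.0202 and 0.145). KPNA3, a nuclear import receptor, was at -0.31 and -0.28 on 221502_at (adjusted p = 0.0841 and 0.189). On 221503_s_at KPNA3 was at -0.60 in siRRM1 (adjusted p = 0.0249) and -0.53 in siRRM2 (0.0864, and 0.0477 with the replicate block).

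**Figure D2:**
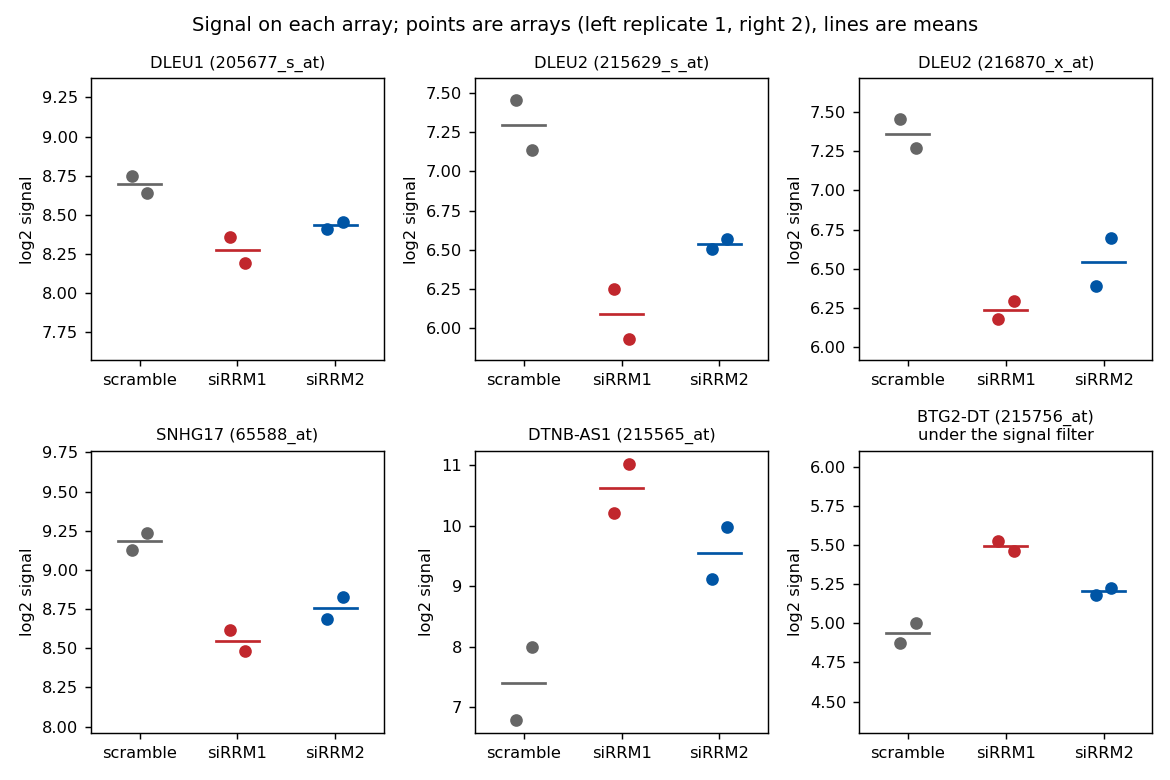
Log2 signal (y axis, a different range in each panel) on each array for the 5 called lncRNA probe sets and for BTG2-DT, which was under the signal filter. Points are single arrays and lines are group means of 2 arrays. The knockdown arrays lie below the scramble arrays for DLEU2, DLEU1 and SNHG17 and above them for DTNB-AS1 and BTG2-DT.

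Factors that process microRNAs were listed beside the DLEU2 and MIR22HG hosts. Of 15 genes, 8 were tested and 0 were called in either knockdown, beside 12.1% and 1.32% of all probe sets, with medians of -0.13 and -0.02. The smallest p-values belonged to TNRC6B, a partner of Argonaute in silencing, at 0.20 in siRRM1 (adjusted p = 0.183), and to DICER1, which cuts precursors to mature microRNAs, at -0.36 in siRRM2 (adjusted p = 0.392). TARBP2, a DICER1 partner, was at -0.21 in siRRM1 (adjusted p = 0.213), and RAN, the GTPase of nuclear export, at -0.11 in siRRM2 (adjusted p = 0.561).

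The snoRNA host genes of the SNHG group were measured by 7 probe sets for 5 genes, all of them tested. In siRRM1 1 of the 7 was called, SNHG17, and in siRRM2 0 were, beside 12.1% and 1.32% of all probe sets tested. Their medians were -0.34 in siRRM1 and -0.21 in siRRM2, and 5 of the 7 lay below both scramble arrays in each knockdown, beside 31.4% of all probe sets in siRRM1 and 28.9% in siRRM2. Of these 5, 3 were probe sets of the same gene pair, so they are not separate observations.

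SNHG17 fell in siRRM1. On 65588_at the signals were 9.13 and 9.23 in scramble, 8.61 and 8.49 in siRRM1, and 8.69 and 8.82 in siRRM2. The 4 knockdown arrays lay below both control arrays. The difference was -0.63 in siRRM1 (SE 0.10, 95% interval -0.87 to -0.39, 1.55-fold lower, adjusted p = 0.0122) and -0.42 in siRRM2 (SE 0.10, adjusted p = 0.096). Between the knockdowns it was -0.21 (-0.45 to 0.03, adjusted p = 0.633). Without scramble replicate 2 or siRRM1 replicate 2 the siRRM1 call was lost (adjusted p = 0.0578 and 0.0646).

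The SNHG17 window (GRCh38.p14, chr20:38435279-38435578, minus strand) is printed because SNHG17 was the only SNHG gene called. Capitals mark its 1 match to the E2F motifs, read on the opposite strand, with its first base at position -37 from the start. Such a match was in 3.31% of all windows.
SNHG17 window: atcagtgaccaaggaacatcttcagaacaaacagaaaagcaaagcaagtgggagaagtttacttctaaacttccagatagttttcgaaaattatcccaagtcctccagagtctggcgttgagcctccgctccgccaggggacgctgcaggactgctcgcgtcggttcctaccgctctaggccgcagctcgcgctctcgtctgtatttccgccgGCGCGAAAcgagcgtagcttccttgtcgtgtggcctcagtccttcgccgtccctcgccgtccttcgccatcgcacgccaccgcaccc
It held no GC box, E-box, CCAAT box or p53 decamer.

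SNHG32, also a host of snoRNAs, was read by 220755_s_at with 11.01 and 11.52 in scramble, 10.65 and 10.96 in siRRM1, and 10.42 and 10.88 in siRRM2. The control arrays differed by about as much as the groups did. Its differences were -0.46 (SE 0.21, adjusted p = 0.199) and -0.61 (SE 0.21, adjusted p = 0.193), neither past the threshold. With the replicate block both passed (adjusted p = 0.0152 and 0.0139). SNHG4 shares all of its 3 probe sets with MATR3, which encodes the nuclear matrix protein matrin 3. They were at -0.34, -0.22 and -0.19 in siRRM1 and at -0.27, -0.21 and -0.18 in siRRM2, and none was called (smallest adjusted p = 0.0759, on 200624_s_at, and 0.0404 with the replicate block). Each of them lay below both scramble arrays in both knockdowns.

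SNHG3, on 215011_at together with SNORA73A, had 6.48 and 5.78 in scramble, 5.90 and 5.44 in siRRM1, and 6.03 and 5.91 in siRRM2. The scramble arrays spanned the siRRM2 arrays and 1 siRRM1 array. Its differences were -0.46 (SE 0.24, adjusted p = 0.240) and -0.16 (adjusted p = 0.772). The siRRM1 value was -0.11 without scramble replicate 1 and -0.81 without scramble replicate 2, and its adjusted p with the replicate block was 0.0479. SNHG20, on 221621_at together with MIR6516 and SCARNA16, lay between 6.11 and 6.25 on all 6 arrays. Its differences of 0.04 and -0.03 did not pass the test, and the siRRM1 value changed sign when each array was centred on its median (-0.0046).

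Protein-coding genes that also carry snoRNAs were listed for comparison. Of 25 such genes, only 9 had a probe set that names no other gene, because many share theirs with the snoRNAs. In siRRM1 2 of these 9 were lower and 0 higher, beside 5.74% and 6.41% of all probe sets tested, and in siRRM2 0 were called, beside 1.32%. The list's medians were -0.21 and -0.17, beside -0.02 and -0.01 for all probe sets tested. With the replicate block 3 were lower in siRRM1 and 2 in siRRM2. RABGGTB, a subunit of the enzyme that attaches geranylgeranyl groups to Rab proteins, was at -1.07 in siRRM1 (SE 0.14, adjusted p = 0.00602) and -0.67 in siRRM2 (adjusted p = 0.0646, and 0.0312 with the block). IPO7, a nuclear import receptor, was at -0.88 in siRRM1 (SE 0.09, adjusted p = 0.00306) and -0.47 in siRRM2 (adjusted p = 0.0628, and 0.0285 with the block). All 4 IPO7 probe sets were called in siRRM1, from -0.88 to -0.56.

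Spliced RNAs of several SNHG genes are known to be broken down by nonsense-mediated decay, so its factors were listed too. Of 16 genes, 9 were tested and 0 were called in either knockdown, beside 12.1% and 1.32% of all probe sets, with medians of -0.04 and 0.01. UPF2, a core factor of the pathway, was at -0.38 in siRRM1 (adjusted p = 0.0631, and 0.0303 with the replicate block) and -0.32 in siRRM2 (adjusted p = 0.184). SMG8, a regulator of the SMG1 kinase, was at -0.29 in siRRM1 (adjusted p = 0.120), and UPF1, the central helicase, at -0.16 in siRRM2 (adjusted p = 0.580).

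**Figure D3:**
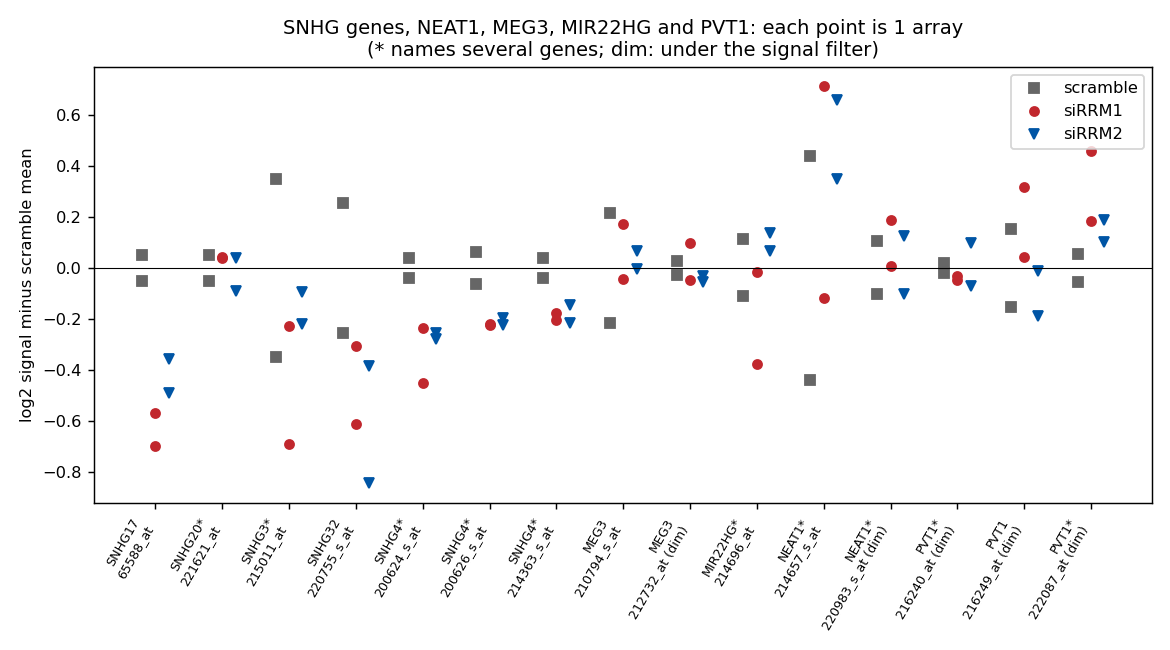
Log2 signal minus the scramble mean of the same probe set (y axis) for the SNHG genes, MEG3, MIR22HG, NEAT1 and PVT1, with 1 point per array. The siRRM1 and siRRM2 arrays lie below both scramble arrays for SNHG17, SNHG32 and the 3 SNHG4 probe sets, while the scramble arrays of NEAT1 on 214657_s_at, at 6.77 and 5.89, stand farthest apart.

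NEAT1 had a wide spread between control arrays. Its probe set 214657_s_at, which also names MIR612, had 6.77 and 5.89 in scramble, 7.04 and 6.22 in siRRM1, and 6.99 and 6.68 in siRRM2. The groups overlapped. The differences were 0.30 (SE 0.34, 95% interval -0.49 to 1.09, adjusted p = 0.599) and 0.50 (SE 0.34, -0.29 to 1.29, adjusted p = 0.466). The siRRM1 value was negative without scramble replicate 2 (-0.14) and without siRRM1 replicate 1 (-0.12). The other NEAT1 probe set, 220983_s_at, was dim, between 3.03 and 3.32.

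Proteins of the paraspeckle, the nuclear body that NEAT1 scaffolds, were listed as 15 genes, of which 14 were tested. In siRRM1 5 of the 14 were lower and 0 higher, beside 5.74% and 6.41% of all probe sets tested, and in siRRM2 0 were called, beside 1.32%. The list's medians were -0.27 and -0.17, beside -0.02 and -0.01. The siRRM1 count was 0 without scramble replicate 1 or siRRM1 replicate 2, 1 without scramble replicate 2, and 2 without either siRRM2 array. With the replicate block 6 were lower in siRRM1 and 1 in siRRM2. SFPQ, an RNA-binding protein of the paraspeckle core, was at -0.48 in siRRM1 (SE 0.09, adjusted p = 0.0213) and -0.39 in siRRM2 (adjusted p = 0.0955). HNRNPH3, a splicing regulator, was at -0.58 in siRRM1 (SE 0.12, adjusted p = 0.0238) and -0.50 in siRRM2 (adjusted p = 0.0926, and 0.0347 with the block). The others called in siRRM1 were DAZAP1 at -0.55, FAM98A at -0.46 (adjusted p = 0.029) and PSPC1 at -0.37 (adjusted p = 0.048), named here after their values were seen. Probe sets of a gene differed: of 4 for SFPQ, 221768_at was at -0.08 in siRRM1 (adjusted p = 0.728). TARDBP was called lower in siRRM1 on 221264_s_at (-0.61, adjusted p = 0.0336), but not on the list's 200020_at (-0.25, adjusted p = 0.148). CPSF6 was called lower on 202470_s_at (-0.61, adjusted p = 0.0383), but not on the list's 202469_s_at (-0.31, adjusted p = 0.0625, and 0.0479 with the block). NONO was at 0.07 (adjusted p = 0.671). TARDBP, CPSF6 and NONO are named after their values were seen.

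**Figure D4:**
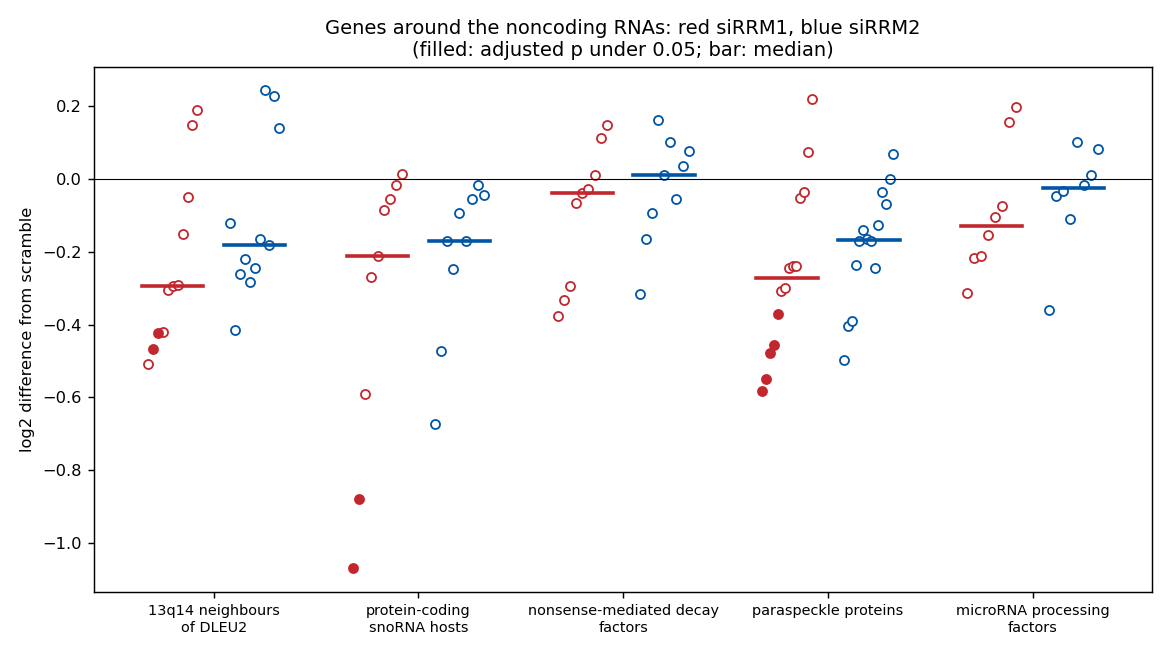
Log2 difference from scramble (y axis) of every tested gene of the 5 lists, with 1 probe set a gene, siRRM1 in red and siRRM2 in blue, and the list's median as a bar. Filled points have an adjusted p under 0.05: in siRRM1 2 of 11 genes around DLEU2, 2 of 9 snoRNA hosts and 5 of 14 paraspeckle proteins, all lower, and 0 in siRRM2.

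MEG3, an imprinted lncRNA, was tested on 210794_s_at, with 5.70 and 6.13 in scramble, 5.87 and 6.08 in siRRM1, and 5.91 and 5.98 in siRRM2. The knockdown arrays lay between the control arrays, and the differences of 0.06 and 0.03 changed sign with the array left out. MIR22HG, the host of miR-22, had on 214696_at 7.41 and 7.18 in scramble, 7.28 and 6.92 in siRRM1, and 7.36 and 7.43 in siRRM2. Its differences of -0.20 and 0.10 were not called (adjusted p = 0.397 and 0.751). PVT1, a neighbour of MYC, had 3 probe sets, all under the signal filter, with signals of 4.26 to 5.20. The second MEG3 probe set, 212732_at, lay between 3.87 and 4.02.

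DTNB-AS1 was the member that rose, and by the widest margin. It is annotated as antisense to DTNB, the gene of dystrobrevin beta, a cytoskeletal partner of dystrophin. The strand that its probe set reads was not checked, because probe sequences were not used here, so the signal is assigned to DTNB-AS1 by annotation only. On 215565_at the signals were 6.78 and 8.0 in scramble, 10.21 and 11.02 in siRRM1, and 9.11 and 9.98 in siRRM2. The arrays of a group lay apart, and yet every knockdown array lay above both control arrays. The difference was 3.22 in siRRM1 (SE 0.45, 95% interval 2.16 to 4.29, 9.34-fold higher, adjusted p = 0.0084). In siRRM2 it was 2.15 (SE 0.45, 1.09 to 3.22, 4.45-fold higher), with an adjusted p of 0.0729 that misses the threshold and is 0.00024 with the replicate block. The siRRM1 arrays lay above the siRRM2 arrays by 1.07 (0.0076 to 2.13, unadjusted), with an adjusted p of 0.574, and 0.00857 with the block.

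Without siRRM1 replicate 2 the siRRM1 difference of DTNB-AS1 was 2.82, with an adjusted p of 0.0564. The probe set of DTNB itself, 214253_s_at, was at -0.01 in siRRM1 (SE 0.16, adjusted p = 0.974) and 0.08 in siRRM2 (adjusted p = 0.835). The other DTNB probe set, 215295_at, was dim at 2.99 to 3.34. Among the myeloid markers, 5 of 6 were measured, and their mean log2 signal was 4.65 to 4.74 in scramble, 6.01 to 6.75 in siRRM1 and 5.35 to 5.97 in siRRM2. S100A8, S100A9 and CSF1R were the markers that rose in siRRM1, while CD14 and LYZ, which define monocytes, were under the signal filter in all groups (group means 4.25 to 4.32 and 3.06 to 3.22). Their part in the DTNB-AS1 result was not tested.

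The DTNB-AS1 window (GRCh38.p14, chr2:25420843-25421142, plus strand) is printed because this gene had the widest difference among members. Capitals mark its 1 CCAAT box, read on the opposite strand, with its first base at position -24 from the start.
DTNB-AS1 window: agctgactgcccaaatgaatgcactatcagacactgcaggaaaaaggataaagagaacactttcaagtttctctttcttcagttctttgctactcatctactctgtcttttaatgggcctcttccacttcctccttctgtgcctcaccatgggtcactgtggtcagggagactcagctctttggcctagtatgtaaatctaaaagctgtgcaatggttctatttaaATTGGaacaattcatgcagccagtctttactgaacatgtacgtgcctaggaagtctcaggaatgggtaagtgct
It held 1 CpG site, against 21 in the DLEU1 window and 28 in the SNHG17 window, and 43.3% G and C, against a median of 58.7% over all windows. It held no GC box, E-box, E2F motif or p53 decamer.

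The remaining antisense members stayed nearer to the controls. Of 60 antisense probe sets, 23 were tested. DTNB-AS1 was the only one called in siRRM1, and 0 were called in siRRM2, beside 12.1% and 1.32% of all probe sets tested. The median of the 23 was 0.10 in siRRM1 and 0.01 in siRRM2. In siRRM1 8 lay above both scramble arrays and 4 below, beside 26.0% and 31.4% of all probe sets tested. In siRRM2 6 lay above and 4 below, beside 25.8% and 28.9%. THAP9-AS1 had the lowest value of the antisense members and is named after its values were seen. On 215009_s_at it had 8.73 and 8.62 in scramble, 8.24 and 8.03 in siRRM1, and 7.94 and 8.35 in siRRM2. Its differences were -0.54 (SE 0.15, adjusted p = 0.0589) and -0.53 (SE 0.15, adjusted p = 0.133), so that the groups did not overlap but neither call was made. The siRRM1 difference was called with the filter at the 60th percentile, with arrays centred on their medians and with a trend in the prior. It was also called with siRRM1 and scramble fitted alone, with 1 probe set a gene and with the replicate block (adjusted p = 0.0369). It was not called without a filter, after quantile normalization, or when a scramble or siRRM1 array was left out.

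The LINC members numbered 51, of which 9 were tested and 0 called in either knockdown, beside 12.1% and 1.32% of all probe sets tested. Their differences ran from -0.33 to 0.44 in siRRM1 and from -0.32 to 0.53 in siRRM2. The highest of them, LINC00963 on 217625_x_at, named after its values were seen, had 5.24 and 5.40 in scramble, 5.71 and 5.82 in siRRM1, and 5.65 and 6.05 in siRRM2. It is 1 of the 3 members that passed the filter through the knockdown arrays. Its differences of 0.44 and 0.53 are thus given with no weight on their adjusted p of 0.0894 and 0.120 (0.0231 and 0.0298 with the block). Another tested LINC00963 probe set, 215185_at, was at 0.38 in siRRM1 (adjusted p = 0.181, and 0.0257 with the block). In siRRM2 215185_at was at 0.17 (adjusted p = 0.627, and 0.301 with the block). Divergent transcripts (-DT) had 4 of 15 probe sets tested, with differences from -0.56 to 0.06 in siRRM1, and intronic or overlapping transcripts had 6 of 15 tested, from -0.29 to 0.19. None of these was called in either knockdown, beside the same shares of all probe sets tested.

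Under the signal filter, 104 of the 105 members lay within 0.5 of scramble in siRRM1 and 104 in siRRM2. The exception in siRRM1 was BTG2-DT, a divergent transcript of BTG2, an antiproliferative gene. On 215756_at it had 4.87 and 5.00 in scramble, 5.53 and 5.46 in siRRM1, and 5.18 and 5.23 in siRRM2. The siRRM1 arrays were the highest and the scramble arrays the lowest, with no overlap. With no filter 6.52% of all probe sets were called in siRRM1 and 0.68% in siRRM2. In that fit BTG2-DT was at 0.55 in siRRM1 (SE 0.10, adjusted p = 0.0172) and 0.26 in siRRM2 (adjusted p = 0.289). The exception in siRRM2 was ANKRD13C-DT on 220387_s_at, with 3.72 and 3.59 in scramble, 3.82 and 4.38 in siRRM1, and 4.34 and 4.25 in siRRM2. Its siRRM2 difference of 0.64 was not called (adjusted p = 0.149). Both genes are named after their values were seen.

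Partner genes were compared where a member is named after a protein-coding gene. Of 72 such members' genes, 53 had a partner with a probe set of its own, and 17 partners were tested beside a tested member. In both knockdowns 0 of the 17 partners were called, beside 12.1% and 1.32% of all probe sets (with the replicate block 1, DHX9, was lower in siRRM1), with medians of -0.14 in siRRM1 and -0.01 in siRRM2, each partner read by its brightest probe set. Their range was -0.33 to 0.25 in siRRM1 and -0.27 to 0.32 in siRRM2.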

How the data were processed

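The authors deposited log2 signals for 22277 probe sets on 6 arrays, per the table's values. The sources used here do not give the steps from scanner to signal. Array medians lay at 6.11 to 6.16, and no further scaling was applied. The unit tested was the probe set. The 62 platform controls were left out, and the 13329 probe sets whose mean reached the 40th percentile were fitted over all 6 arrays with lmFit and eBayes (limma 3.58.1, R 4.3.3), with 3 residual and 4.29 prior degrees of freedom. Calls were made at a two-sided Benjamini-Hochberg adjusted p under 0.05 over all probe sets tested. Confidence intervals are 95% and not adjusted. An exact permutation test of 2 arrays against 2 cannot go below p = 0.333. The script was tested on simulated data. Gene names came from the platform annotation, which can be old.

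The members and gene lists were chosen with earlier results of these data known. Genes were named by rule: the DLEU and SNHG genes, the 8 genes listed singly, every called member with its other probe sets and partner, RRM1 and RRM2, and up to 2 called or 2 smallest-p genes a list. Genes outside the rule are marked as named after their values were seen. A list's gene was read by its brightest probe set naming no other gene. Alternatives changed the filter, normalization, prior, arrays, unit of the test and replicate block. Scan date and background correction were not varied. Arrays with the same replicate number deviated together in every pair of groups (correlations 0.35, 0.36 and 0.21). This pairing comes from the data, rests on 2 arrays a group and is not stated in the labels.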

Additional observations from a re-analysis of the deposited data

How the results depend on the processing

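Leaving out 1 array, where a group of 1 array is assumed to vary like the others, moved the count of members called in siRRM1 from 5 to between 2 (without siRRM1 replicate 2) and 11 (without siRRM1 replicate 1), and in siRRM2 from 1 to 0 whichever array was left out. A trend in the prior gave 9 and 3, and fitting siRRM2 and scramble alone gave 0. The filter at the 60th percentile gave 0 in siRRM2, where both DLEU2 probe sets were too dim to be tested. With the replicate number as a block the counts were 15, 5 and, between the knockdowns, 1 (DTNB-AS1). The block changed no call printed for a named member or list gene other than those whose block value the report gives. Other probe sets of named genes gained a call in siRRM1, such as SFPQ 214016_s_at (adjusted p = 0.0197) and HNRNPH3 210588_x_at (adjusted p = 0.0345). The cause of these moves was not tested. Of the named differences, 388 results under an alternative kept direction and side of the threshold, 17 lost a call, 12 gained one and 14 changed sign. These counts hold some results more than once, because leaving out either array of the third group equals fitting the 2 groups alone. The sign changes were small and uncalled. With each array centred on its median, SNHG20 in siRRM1 (-0.0046) and MEG3 in siRRM2 (-0.0070) changed sign, and quantile normalization turned MEG3 in siRRM2 (-0.013). Leaving out 1 array gave ranges that cross 0 in siRRM1 for MEG3 (-0.15 to 0.28), NEAT1 (-0.14 to 0.74) and SNHG20 (-0.012 to 0.093). In siRRM2 they did for MEG3 (-0.19 to 0.25), MIR22HG (-0.011 to 0.21), SNHG3 (-0.51 to 0.19) and SNHG20 (-0.092 to 0.037). The cause of these changes was not tested.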
